A study of Mus musculus with 4 samples.

Results

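The stem cell and crypt genes Lgr5, Ascl2, Axin2, Smoc2, Ephb2, Ephb3, Sox9, Rnf43, Lrig1 and Prom1 were followed in mouse distal colon. They were chosen by symbol, with earlier results of these data known. Every probe set that the platform annotation assigns to 1 of them alone was read on each array. This gave 18 of the 45101 probe sets of the Affymetrix arrays, for 9 of the 10 genes. Ephb2 was not analysed here. Each value is 1 array of 1 mouse, and the groups were an Adamts12-deficient (KO) mouse given 2% dextran sodium sulfate (DSS), a wild-type (WT) mouse given 2% DSS, an untreated KO mouse and an untreated WT mouse. All animals were 8 to 10 weeks old when treatment began. DSS is a polymer that injures the colonic epithelium when it is drunk. The series text gives 7 days of DSS and the treatment protocol 8 days, each followed by 1 day off it. Adamts12 encodes a secreted metalloprotease, and the labels state neither the strain or sex of the mice nor which part of the gene was removed. Fragments of colon were taken whole, so epithelium, stroma, muscle and leukocytes all contributed RNA. With a single array in each group, differences between a pair of arrays have no replicate check.

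Stem cells sit at the base of the colonic crypt and renew the epithelium, while their daughters divide higher up and then differentiate towards the surface. Wnt signals from the surrounding stroma, amplified by R-spondins that bind Lgr receptors, maintain these cells and switch on target genes through the TCF and LEF factors. Several members are themselves Wnt targets, and a few of them feed back on the pathway. After injury, Lgr5-expressing cells are commonly depleted and the crypt is rebuilt by cells that regain stem cell properties.

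Before the members are described, some properties of the arrays bear on them. Column medians lay between 3.42 and 3.46 on the log2 scale. The brighter Adamts12 probe set (1439827_at) had log2 values of 1.41 and 1.42 on the DSS and untreated KO arrays, and of 2.18 on both WT arrays. It was dim throughout and checks the genotype labels weakly. The untreated KO array stood apart in genes of position along the gut. Its summed linear signal over 10 measured small intestine and proximal colon genes was 5199, against 174 in KO with DSS, 539 in WT with DSS and 247 in untreated WT. Its sum over 9 measured posterior Hox genes was 171, against 632 in KO with DSS, 407 in WT with DSS and 1365 in untreated WT. The epithelial markers Epcam and Krt8 were bright on every array, with log2 values from 10.98 to 11.51 and from 12.04 to 12.33. Not every pan-epithelial gene was so level. Cdx2 read 6.19 in KO with DSS, 7.34 in WT with DSS, 8.40 in untreated KO and 6.15 in untreated WT.

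The Wnt target genes Ascl2 and Axin2 were both highest in untreated KO and lowest in KO with DSS, so the RefSeq promoters of both are shown. Each runs 250 bases before to 50 after the annotated start, in build GRCm38.p6. Ascl2 lies on the minus strand (chr7:142969215-142969514) and Axin2 on the plus strand (chr11:108920099-108920398). Capitals mark E-boxes, CANNTG, the element read by basic helix-loop-helix factors such as Ascl2 itself.
Ascl2: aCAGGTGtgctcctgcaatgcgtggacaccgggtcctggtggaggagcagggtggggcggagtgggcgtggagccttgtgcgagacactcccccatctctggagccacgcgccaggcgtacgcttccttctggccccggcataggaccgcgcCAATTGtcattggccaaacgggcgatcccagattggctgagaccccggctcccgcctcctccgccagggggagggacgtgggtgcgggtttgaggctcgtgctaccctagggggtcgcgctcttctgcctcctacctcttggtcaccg
Axin2: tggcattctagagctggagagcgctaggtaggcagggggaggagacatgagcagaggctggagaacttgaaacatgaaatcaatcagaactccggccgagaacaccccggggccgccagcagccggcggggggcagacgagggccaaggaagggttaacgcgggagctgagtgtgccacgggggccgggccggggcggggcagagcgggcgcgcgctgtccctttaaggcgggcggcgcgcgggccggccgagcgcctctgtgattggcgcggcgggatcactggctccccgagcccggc

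The Ascl2 window held 2 E-boxes, CAGGTG and CAATTG, and the Axin2 window 0. Of 27025 genes with a promoter in the RefSeq table, each by its first listed window, 72.1% had at least 1 CANNTG in a window of this length. The TCF and LEF core, CTTTGAA or CTTTGAT on either strand, occurred in neither window and in 8.77% of all promoters. The shorter CTTTG, contained in both, was also absent from both windows and present in 54.0% of all promoters on either strand. Absence here says only that these letters are not in this window. The table held promoters for 7 of the 10 genes, not including Lgr5, Smoc2 and Sox9, and of the 9 windows found, 1 held CTTTG, at the second listed start of Prom1.

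Lgr5, the R-spondin receptor that marks crypt base stem cells, had the lower values on the DSS arrays of both genotypes. Its brighter probe set (1450988_at) read 2.99 in KO with DSS, 3.49 in WT with DSS, 4.38 in untreated KO and 4.43 in untreated WT, in log2 units. Both DSS values lay below both untreated values, and the untreated pair differed by only 0.05. On the KO DSS array this probe set was below the array median, the limit used here for dim probe sets, so its difference there has only a bound. DSS minus untreated was -1.39 in KO as measured and -0.95 with the KO DSS value held at that array's median. In WT it was -0.94, 1.92-fold lower. The other Lgr5 probe set (1444519_at) stayed between 2.25 and 2.62, below the median of every array. In bulk tissue, fewer Lgr5-expressing cells and less Lgr5 RNA per cell cannot be told apart.

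Ascl2, the transcription factor that controls the stem cell programme, was highest on the untreated KO array in all 3 of its probe sets. The brightest (1460514_s_at) read 4.43 in KO with DSS, 4.91 in WT with DSS, 5.62 in untreated KO and 4.95 in untreated WT. The WT pair was thus nearly level, at a difference of -0.04, while the KO pair differed by -1.19. A second probe set (1422396_s_at) read 2.68 in KO with DSS, 4.04 in WT with DSS, 5.29 in untreated KO and 4.03 in untreated WT. Its KO DSS value was below the array median, so the DSS difference in KO was -2.61 as measured and -1.86 with that value held at the median, beside 0.01 in WT. The third (1432018_at) was below the median on both DSS arrays, with DSS differences held at the median of -0.56 in KO and -0.27 in WT. The direction in KO was shared by the 3 probe sets, and its size was not.

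Axin2, a scaffold of the destruction complex that degrades beta-catenin and a feedback target of Wnt signalling, likewise had its lowest value in KO with DSS and its highest in untreated KO. Its brighter probe set (1436845_at) read 4.88 in KO with DSS, 5.58 in WT with DSS, 6.28 in untreated KO and 5.25 in untreated WT. The DSS difference was -1.40 in KO and 0.33 in WT, so the KO array was lower with DSS and the WT array slightly higher. The other probe set (1421341_at), between 1.86 and 3.16, was below the median of every array.

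Rnf43, a ubiquitin ligase that removes Wnt receptors from the cell surface and so dampens the pathway, varied little. It read 4.23 in KO with DSS, 4.42 in WT with DSS, 4.67 in untreated KO and 4.76 in untreated WT. Both DSS values were the lower ones, with differences of -0.44 in KO and -0.34 in WT.

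Ephb3, a receptor whose graded level helps to keep proliferating cells in the lower crypt, was nearly flat. It read 5.60 in KO with DSS, 5.79 in WT with DSS, 5.71 in untreated KO and 5.77 in untreated WT. All 4 values lay within 0.19 of each other. Of the ephrin-B ligands, which are stronger towards the surface, Efnb2 differed with DSS by -0.48 in KO and -0.42 in WT, Efnb1 by -0.33 in KO and -0.23 in WT, and Efnb3 did not pass the filter on dim probe sets.

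Sox9, a transcription factor of the crypt base and transit-amplifying zone, did not separate the groups. Its brightest probe set (1451538_at) read 6.16 in KO with DSS, 6.16 in WT with DSS, 5.82 in untreated KO and 6.16 in untreated WT. The second (1424950_at) ranged from 5.38 on the KO DSS array to 5.64 on the untreated KO array, so the 2 probe sets placed the untreated KO array at opposite ends. The third (1433889_at) was dim, between 1.30 and 1.66.

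Lrig1, a transmembrane inhibitor of the EGF receptor family that marks stem cells, was lowest on the untreated KO array. Its brightest probe set (1449893_a_at) read 7.12 in KO with DSS, 7.14 in WT with DSS, 6.33 in untreated KO and 6.96 in untreated WT. A second (1434210_s_at) read 6.94 in KO with DSS, 6.96 in WT with DSS, 6.41 in untreated KO and 6.77 in untreated WT. DSS minus untreated was 0.79 and 0.53 in KO for these probe sets, and 0.18 and 0.19 in WT. The dim one (1419928_at) stayed between 2.41 and 2.71, below every array's median.

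Among the receptors that Lrig1 restrains, Erbb3 differed with DSS by -1.32 in KO and -0.77 in WT, and Erbb2 by -1.22 in KO and -0.48 in WT. Egfr was higher by 1.06 in KO and differed by -0.31 in WT. Erbb4 did not pass the filter.

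Smoc2, a secreted matricellular protein enriched in Lgr5-expressing stem cells and also made by fibroblasts, was highest on the untreated WT array in both probe sets. The brighter (1415935_at) read 5.28 in KO with DSS, 5.52 in WT with DSS, 4.93 in untreated KO and 5.79 in untreated WT. The other (1431362_a_at) read 3.58 in KO with DSS, 3.58 in WT with DSS, 3.46 in untreated KO and 4.34 in untreated WT. KO minus WT was -0.24 and 0.00 under DSS for these probe sets, and -0.86 and -0.88 without DSS. Over 10 fibroblast genes the summed linear signal was 4314 in KO with DSS, 2086 in WT with DSS, 2201 in untreated KO and 2760 in untreated WT. The part of fibroblasts in these values was not tested.

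Prom1, a membrane protein (CD133) of cell protrusions that is found on stem cells and more widely in the crypt, also peaked in untreated KO. Its single probe set (1419700_a_at) read 9.39 in KO with DSS, 9.86 in WT with DSS, 10.34 in untreated KO and 9.28 in untreated WT. DSS minus untreated was -0.95 in KO and 0.58 in WT.

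**Figure D1:**
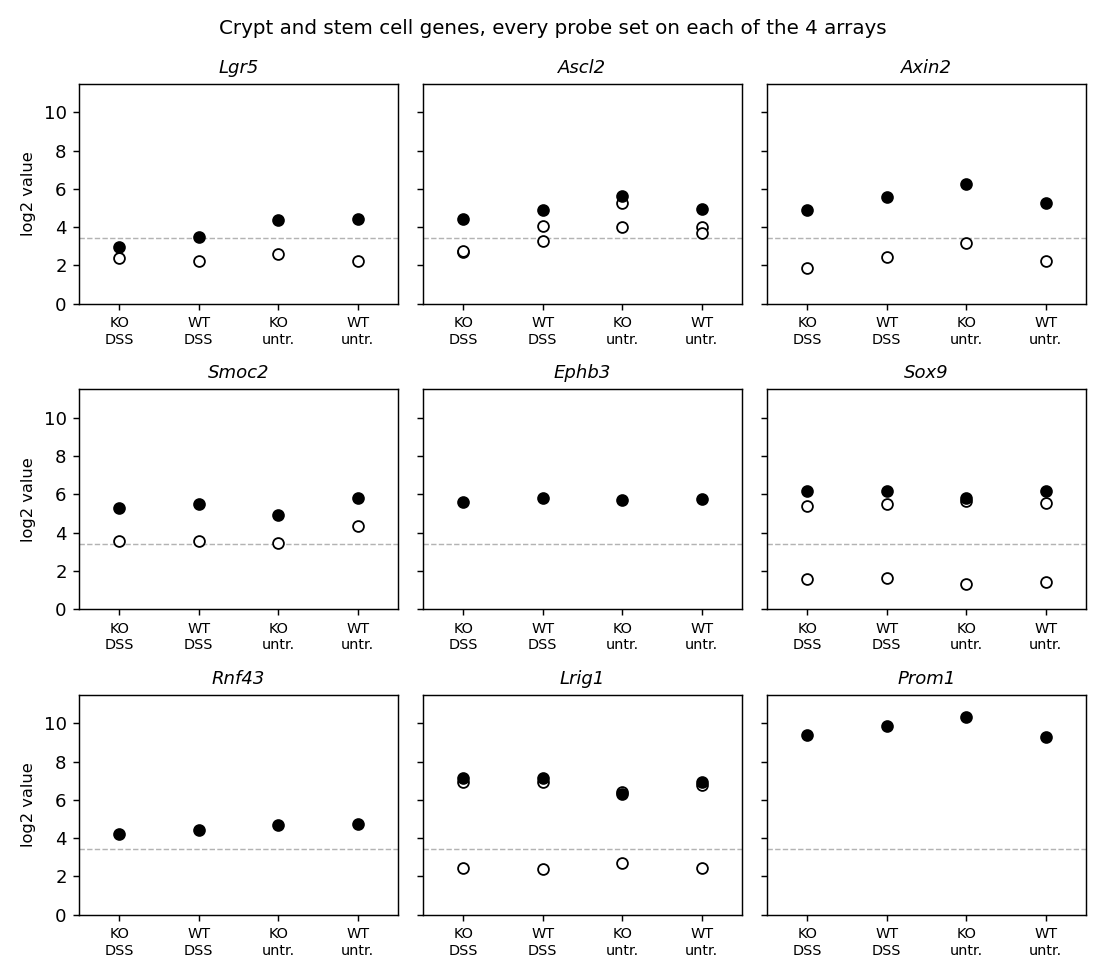
Log2 value (vertical axis) of every probe set of the 9 measured genes on the KO DSS, WT DSS, untreated KO and untreated WT arrays. Filled points are the probe set that represents the gene, open points its other probe sets, and the dashed line is the mean of the array medians. Lgr5 was lower on both DSS arrays, Ascl2, Axin2 and Prom1 peaked on the untreated KO array, and Ephb3 stayed within 0.19.

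Each gene was next represented by its probe set with the highest mean among those above the array median on at least 1 array. Of the 18 probe sets, 14 passed this filter, and all 9 genes kept at least 1. Lgr5 passed through the WT DSS array and both untreated arrays, and the other 8 genes through all 4 arrays. With DSS in KO, 3 of the 9 were at least 2-fold lower (Lgr5, Ascl2 and Axin2) and 0 at least 2-fold higher, against 6.68% lower and 10.8% higher among all 12189 genes. The Lgr5 call rests on its value below the array median: with values below an array's median held at it, a setting chosen after the data were seen, 2 of the 9 were at least 2-fold lower, against 6.05% of all genes. With DSS in WT, 0 were 2-fold apart, against 4.96% of all genes lower and 5.82% higher. The median log2 difference of the members was -0.44 in KO and 0.00 in WT, beside 0.06 and -0.01 over all genes. For 10 pan-epithelial genes the medians were close to these, at -0.40 in KO and -0.05 in WT. Whether the members differ from them was not tested. Lgr5, Ascl2 and Rnf43, 3 of 9, were lower with DSS in both genotypes by any amount, as were 26.9% of all genes, so this share was near the background. For the representative probe sets of Ascl2 and Axin2, the 2-fold lower value with DSS in KO rested on the untreated KO array. With untreated WT as the comparator, KO with DSS was at least 2-fold lower for 1 gene, Lgr5, at -1.44 as measured but only about 2-fold when held at the median. Against the same array Ascl2 differed by -0.52 and Axin2 by -0.37. The second Ascl2 probe set (1422396_s_at) read 2.68 in KO with DSS and 4.03 in untreated WT. That is more than 2-fold lower as measured, but -0.60 when held at the median.

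**Figure D2:**
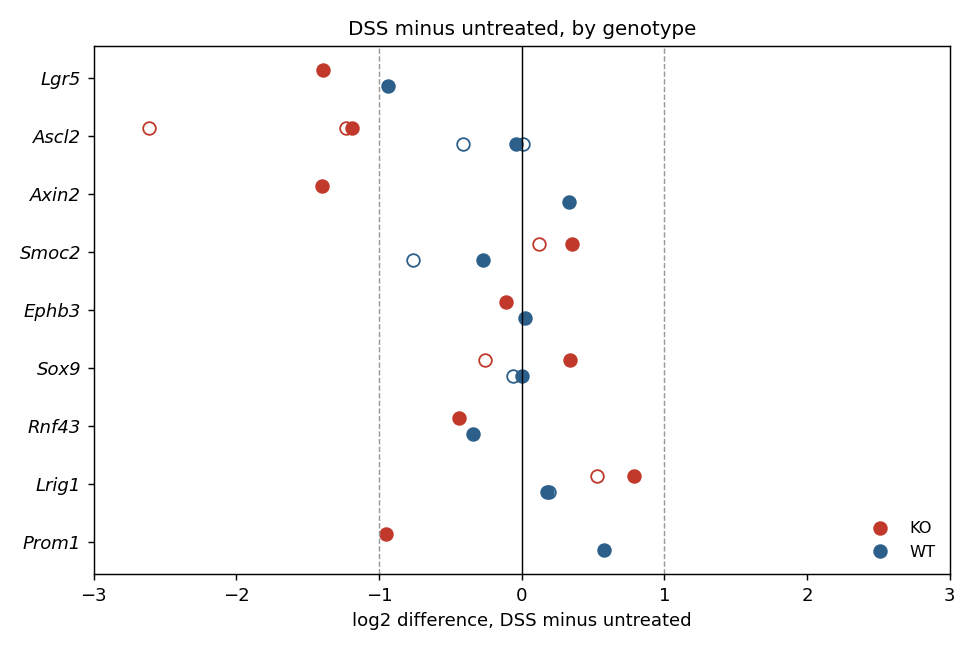
Log2 difference of DSS minus untreated (horizontal axis) for each gene in KO (red) and WT (blue), 1 array against 1. Filled points are the representative probe set, open points the gene's other probe sets past the filter, and dashed lines mark a 2-fold difference. Lgr5 lies left of 0 in both genotypes, at -1.39 in KO, where the DSS value is below the array median, and -0.94 in WT, while Axin2 and Prom1 lie left of 0 in KO and right of it in WT.

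The DSS difference was at least 2-fold apart between KO and WT for 3 of the 9 members, Axin2 (-1.73), Prom1 (-1.53) and Ascl2 (-1.15), each more negative in KO. Such gaps in either direction were found for 18.2% of all genes. With 1 array a group, this difference could not be tested.

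Without DSS, Axin2 and Prom1 were higher in KO than in WT, by 1.03 and 1.06, or 2.04-fold and 2.08-fold. They were 2 of 9 at least 2-fold higher and 0 were 2-fold lower, against 3.43% of all genes higher and 5.99% lower. Ascl2 was higher by 0.67, while Smoc2 differed by -0.86 and Lrig1 by -0.63. Lgr5 (-0.05), Ephb3 (-0.06) and Rnf43 (-0.09) were almost level. The median of the 9 was -0.06, beside -0.01 over all genes. The untreated KO array was the highest of the 4 for 3 members (Ascl2, Axin2 and Prom1) and the lowest for 3 (Smoc2, Sox9 and Lrig1). These 6 of 9 stand beside 61.5% of all genes with that array at one end. Of 10 pan-epithelial genes, 7 were highest and 2 lowest on it. The same array held the raised small intestine and proximal colon genes and the low posterior Hox sum given above, and the part of gut position in the members' values was not tested. This untreated KO array also enters the DSS difference in KO, so the 2 comparisons share it.

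Under DSS, 0 of the 9 members were 2-fold apart between KO and WT, against 4.22% of all genes higher in KO and 1.21% lower. None was higher in KO, 8 were lower, and Sox9 was equal on its brightest probe set. The share of all genes lower in KO by any amount was not counted, and Lrig1 was lower by only -0.02. Axin2 differed by -0.70, Ascl2 by -0.48 and Prom1 by -0.47. Lgr5 differed by -0.50 as measured and by -0.06 when held at the median, and the other 4 differed by -0.24 or less in size. The median was -0.24, beside -0.02 over all genes. One Ascl2 probe set (1422396_s_at) differed by -1.36 as measured and by -0.61 when held at the median. The summed linear signal of 9 leukocyte genes was 2029 in KO with DSS, 791 in WT with DSS, 614 in untreated KO and 973 in untreated WT. That of 10 pan-epithelial genes was 15621 in KO with DSS, 16166 in WT with DSS, 18675 in untreated KO and 16770 in untreated WT. Whether a smaller share of epithelial RNA had a part in the lower member values was not tested.

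**Figure D3:**
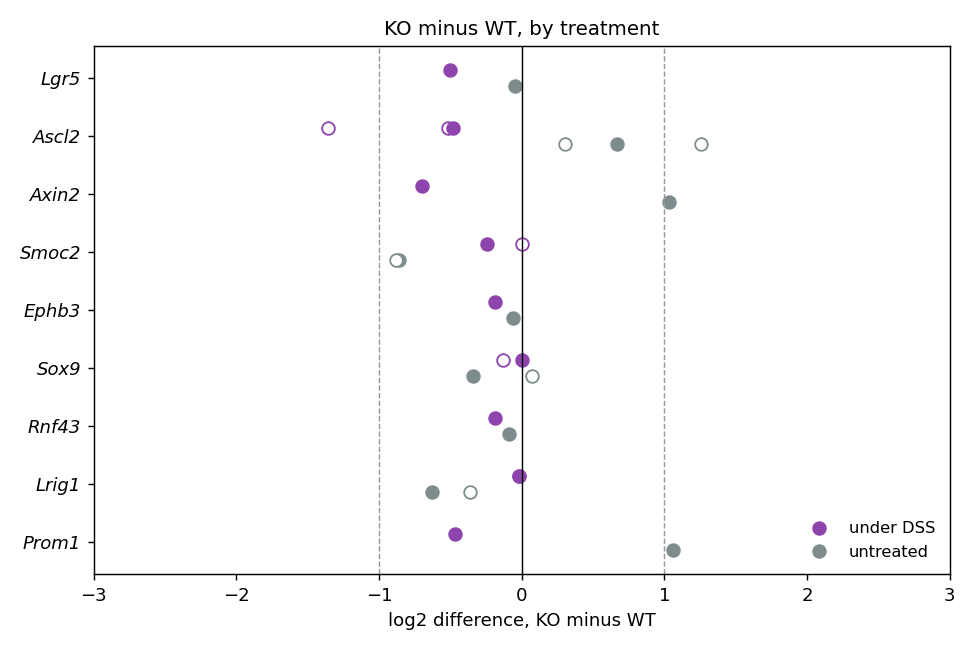
Log2 difference of KO minus WT (horizontal axis) for each gene under DSS (purple) and untreated (grey), 1 array against 1, with points and dashed lines as in the plot of DSS differences. Axin2 and Prom1 lie past the 2-fold line without DSS, at 1.03 and 1.06, and left of 0 under DSS, at -0.70 and -0.47.

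Over both genotypes, limma's additive model of the 4 arrays called 0 of 12189 genes for DSS against untreated (0% at a Benjamini-Hochberg adjusted p under 0.05), and 1437 at an unadjusted p under 0.05. Of the members, Lgr5 alone had an unadjusted p under 0.05, with a log2 difference of -1.16 (SE 0.31, limma adjusted p = 0.384, 4 arrays), lower in both genotypes, from values that include the KO DSS one below the array median. The adjusted p of the 9 members in limma ranged from 0.384 to 0.971. For KO against WT over both treatments, limma also called 0 genes (0%), with 175 at an unadjusted p under 0.05 and 0 of them members. The model left 1 residual degree of freedom. That residual is the difference of the DSS effect between genotypes, not a spread between replicate mice. Each SE was moderated by limma with the spread of all genes.

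Proliferation genes were higher on the DSS arrays. Of 14 measured proliferation genes, 10 in KO and 13 in WT were higher with DSS by at least 2-fold and 0 were 2-fold lower, with medians of 1.36 and 1.63. Rrm2, a subunit of ribonucleotide reductase, differed by 2.58 in KO and 2.31 in WT, and Mcm3, part of the helicase that opens replication origins, by 1.81 in KO and 2.18 in WT. On those arrays, 6 of the 9 members were lower and 3 higher in KO, and 4 were lower and 4 higher in WT. Whether the lists differ was not tested, and the share of all genes in each direction was not counted.

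Other Wnt target and feedback genes were mixed. Of 10 measured from a list of 15, Myc (1.53) and Ccnd1 (1.21) were higher with DSS in KO by at least 2-fold, and Tnfrsf19, a receptor of the TNF family found on Lgr5-expressing cells, differed by -1.83 as measured and by -0.13 when held at the median, being above it on the untreated KO array alone. In WT, Ccnd1 was higher (2.03) and Tcf7l2, the main TCF factor of the gut epithelium, was lower (-1.04). The list's medians were 0.22 in KO and 0.26 in WT. Ccnd1 and Myc, which drive cell cycle entry and growth, are targets of other pathways as well. Cd44, an adhesion receptor of the lower crypt, differed by 0.41 in KO and 0.80 in WT.

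Of 13 measured stem and crypt base genes beyond the members, Nav1 (1.07) was at least 2-fold higher with DSS in KO and Etv5 (-1.75) and Agrn (-1.33) were lower. In WT, Etv5 (1.37) and Cdca7 (1.17) were higher and 0 were lower. The medians were -0.20 in KO and -0.08 in WT. Rgmb, a coreceptor for bone morphogenetic proteins, differed by -0.54 in KO and -0.53 in WT. Bmi1, a Polycomb protein linked to slowly cycling crypt cells, differed by 0.74 in KO and 0.22 in WT. Olfm4 and Tert did not pass the filter.

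Relatives of the members moved little or in their own way. Lrig3 differed with DSS by -0.86 in KO and -0.91 in WT, Lrig2 by 0.10 in KO and -0.06 in WT, and Smoc1 by 0.53 in KO and 0.22 in WT.

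Among differentiated and repair genes, the 10 goblet and crypt base secretory genes had DSS medians of -0.76 in KO and -1.02 in WT. In KO 1 (Reg4) was at least 2-fold higher and 5 lower (Spdef, Atoh1, Agr2, Kit and Muc2), and in WT 0 were higher and 6 lower. Reg4, a secreted lectin of crypt base secretory cells, differed by 2.39 in KO and -4.79 in WT. Atoh1, the transcription factor of the secretory lineage, differed by -2.15 in KO and -1.32 in WT, Fcgbp by -0.09 in KO and -1.04 in WT, and Clca1 by -0.40 in KO and -0.90 in WT. The 10 differentiated colonocyte genes had medians of -0.50 in KO and -0.42 in WT. Of these, 1 (Aqp8) was at least 2-fold higher and 4 lower in KO (Guca2a, Car1, Guca2b and Slc9a3), and 1 (Slc9a3) was higher and 0 lower in WT. Guca2a, the hormone guanylin, differed by -4.27 in KO and -0.84 in WT, and Aqp8, a water channel, by 2.04 in KO and -0.43 in WT. Slc26a3, the chloride and bicarbonate exchanger, differed by 0.27 in KO and -0.71 in WT, and Car4, a carbonic anhydrase, by -0.18 in KO and -0.40 in WT. The 9 measured markers of the fetal-like repair state, which takes the place of the stem cell programme in injured crypts, had medians of 2.74 in KO and 0.44 in WT. In KO 8 of these were at least 2-fold higher and 0 lower. In WT 4 were at least 2-fold higher and 1 lower (Msln, below the median of both WT arrays). By any amount, 5 were higher and 4 lower in WT. Ereg, an EGF receptor ligand with the largest absolute mean over the 4 array comparisons in this list, was higher by 4.92 in KO and 2.96 in WT. Markers of other cells had DSS medians of 1.36 in KO and -0.17 in WT for leukocytes, 0.94 in KO and -0.24 in WT for fibroblasts, and 0.74 in KO and -0.12 in WT for endothelium. Those of smooth muscle were 0.37 in KO and -0.56 in WT, and those of neurons and glia 0.86 in KO and 0.34 in WT. Repair genes were low on the untreated KO array, with a summed linear signal of 870, against 5265 in KO with DSS, 2715 in WT with DSS and 2354 in untreated WT.

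**Figure D4:**
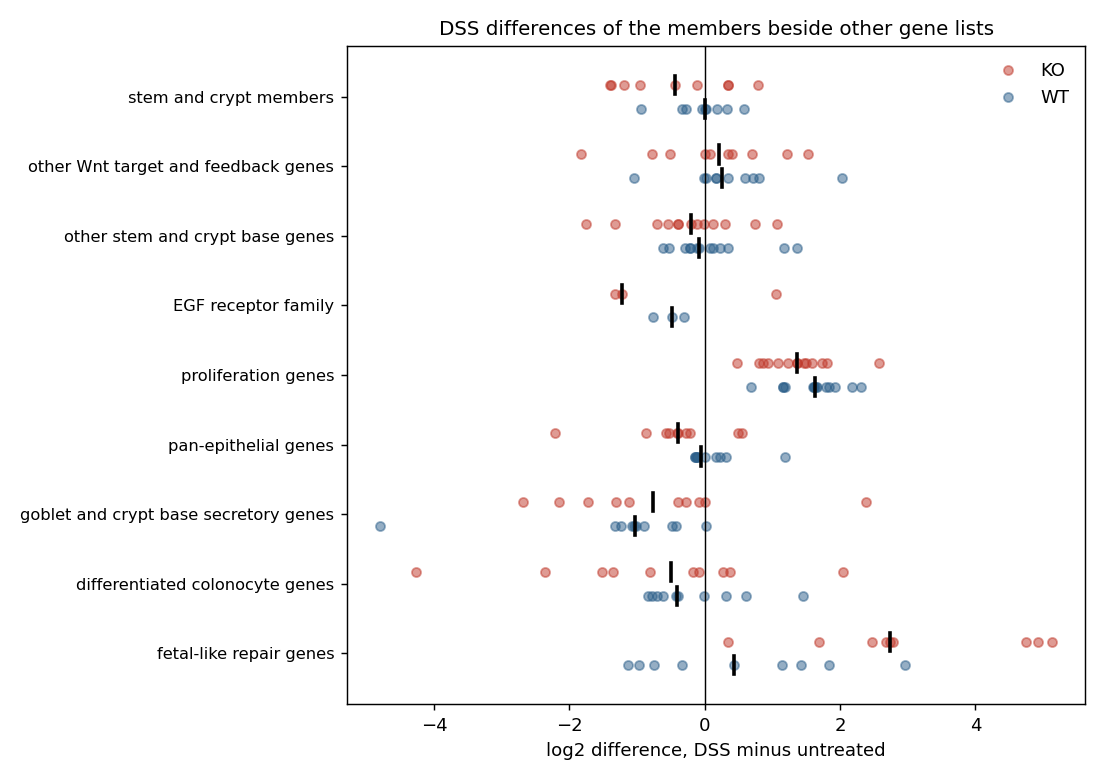
Log2 difference of DSS minus untreated (horizontal axis) for each measured gene of the members and 8 other lists, in KO (red) and WT (blue), with a black bar at each median. The members lie around medians of -0.44 and 0.00, and the pan-epithelial genes around -0.40 and -0.05. Every proliferation gene lies right of 0 in both genotypes.

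The genes whose profile over the 4 arrays came closest to that of Lgr5, by Euclidean distance of log2 values after each gene's mean was removed, were Clmn (0.06), St6galnac2 (0.08), Ccpg1os (0.14), Neurl1b (0.15) and Pccb (0.16). Clmn, a membrane protein with an actin-binding domain, read 5.80 in KO with DSS, 6.36 in WT with DSS, 7.18 in untreated KO and 7.29 in untreated WT. With 4 points per profile, this ranking is a description of these arrays.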

How the data were processed

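The authors deposited 1 table of log2 values for 45101 probe sets on 4 Affymetrix arrays, from Trizol-extracted RNA per the labels' protocols. The summarization, the normalization and the genome build were not given in the sources used here. Values themselves showed the scale: the maximum of 13.23 is 9608 as log2 and 556821 as a natural log, above the 65535 of a 16-bit scanner. No detection calls were used, so the array median served as the limit for dim probe sets.

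Probe sets were named by the platform annotation, with symbols updated by gene number through RefSeq (GRCm38.p6): 34945 had 1 symbol (34741 matched), 932 several, 9160 none and 64 were controls. After the filter, 24594 probe sets and 12189 genes remained. Pairs of arrays were compared by log2 difference, with at least 2-fold as the limit and no test. DSS and genotype were also tested over the 4 arrays with limma 3.58.1 (R 4.3.3; lmFit, eBayes with trend, two-sided), with a median of 2.68 prior degrees of freedom, and the code was tested on simulated data. Summed linear signals add 2 to the power of each log2 value.

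Members and the 17 other lists were chosen with earlier results of these data known. From each other list the text names up to 4 genes with the largest absolute mean of the 4 differences. It names all where 5 or fewer were measured, and the genes behind small counts. In that mean the WT DSS and untreated KO values cancel, so it ranks genes by KO with DSS against untreated WT alone. Krt8 and Adamts12 were added as checks, and Cdx2 as a contrast to Krt8, after values were seen. Alternatives were quantile normalization, median centring, other filters, the mean over probe sets, dropping probe sets that can match several transcripts, other limma settings and leaving out arrays. Holding values below an array's median at that median was added after the data were seen. Python 3.11.15 (pandas 2.3.3, numpy 2.4.6) and matplotlib 3.10.9 were used.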

Additional observations from a re-analysis of the deposited data

Results flagged for a closer look

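For 5 members, the DSS effect or the genotype effect pointed in opposite directions at the other factor's 2 levels. The share of all genes that meet this rule was not counted, so the 5 are only a listing. The difference of the DSS effect, KO minus WT, was -1.73 for Axin2, -1.53 for Prom1, -1.15 for Ascl2, 0.62 for Smoc2 and -0.13 for Ephb3 on the log2 scale. For Ascl2 it was the genotype difference that turned, at -0.48 under DSS and 0.67 without it. For Ephb3 both DSS differences were small, at -0.11 in KO and 0.02 in WT. These differences were not tested, since each group has 1 array. All 5 include the untreated KO array, which stood apart in genes of gut position, and its part was not tested.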

How the results depend on the processing

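The count of members at least 2-fold lower with DSS in KO was 3, and it was 1 with the untreated WT array as the reference, where the reference differs in genotype too. With values below an array's median held at it, an alternative chosen after seeing the data, it was 2, and Lgr5 in KO was -0.95. Prom1 in KO (-0.95) reached -1.03 after quantile normalization. The other counts of members stayed within 1.5 times their value under the alternatives run, and no 2-fold difference changed sign. The 75th percentile filter left 7 members and removed Lgr5 and Rnf43. In limma, the DSS test called 0 genes, and 1 gene after quantile normalization and 1 without the covariate, Lrg1 both times, a gene that is no member. Leaving out 1 array at a time left the additive model without a residual degree of freedom, so each term was fitted alone there. In those fits the DSS difference of Lgr5 ranged from -1.42 to -0.92. They mix genotype with treatment, so this range is no check of the additive estimate. Members called remained at 0 in every limma setting run on all 4 arrays. No paired analysis was possible because each group has 1 array and the labels give no replicate numbers. With so few arrays precision is low, and dim probe sets have only a bound at their lower end.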
